A study of Mus musculus with 2 samples.

Results

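The genes described here are 4 enzymes of bile acid synthesis, Cyp7a1, Cyp8b1, Cyp7b1 and Cyp39a1, and Nr0b2, which encodes the repressor SHP. They were chosen by name: a member is a probe set of the deposited liver table whose platform annotation names that gene alone. Each of the 5 genes had 1 such probe set, among 1779 probe sets with 1 gene symbol (1750 genes) and 5082 in all, and none was also named by a probe set with several symbols.

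The saline group was C57BL/6J mice that continued on jugular saline infusion with food available, and the PN group was C57BL/6J mice that received parenteral nutrition (PN, nutrients given into a vein) with food taken away. All mice were 6 to 10 weeks old, carried the same catheter from day 1, received saline from day 2, entered their group on day 3 and were killed on day 11. RNA of 3 livers per group was pooled and each pool was measured on 1 array, so the differences have no replicate check, no test was possible and the spread between mice is unknown. Route of nutrition and absence of food changed together between the pools, and the labels used here state no sex.

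Bile acids are made from cholesterol in hepatocytes. In the classical pathway CYP7A1 carries out the first and rate-limiting step, and CYP8B1 later adds the hydroxyl group that makes the product cholic acid rather than chenodeoxycholic acid and, in mice, muricholic acids. In the alternative pathway the cholesterol side chain is oxidised first, and the resulting oxysterols are then hydroxylated by CYP7B1 or CYP39A1. Bile acids that return to the liver activate the receptor FXR, which induces SHP. SHP has no DNA-binding domain of its own and represses Cyp7a1 and Cyp8b1 by binding receptors that sit on their promoters, among them LRH-1 (gene Nr5a2) and HNF4A. FXR in the ileum also induces FGF15, a hormone that acts on the liver to lower Cyp7a1.

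Each pathway held 1 gene with a higher level and 1 with a lower level in the PN pool. Cyp7a1 and Cyp39a1 were higher, and Cyp8b1, Cyp7b1 and Nr0b2 were lower. Among all deposited probe sets 47.3% were higher and 52.7% lower, and among those with 1 symbol 50.4% were higher and 49.6% lower, so the split of 2 against 3 members lay near that of the table. By size, 1 member was at least 2-fold higher and 2 were at least 2-fold lower, against 7.53% and 7.25% of the probe sets with 1 symbol. Most of those probe sets were dimmer than the members. Of the 93 with a mean level over both pools of at least 8, as the members had, 29.0% differed by at least 2-fold in either direction. The table itself had been limited by the authors to differences of at least 1.5-fold, so every member had to differ by that much to be present.

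**Figure D1:**
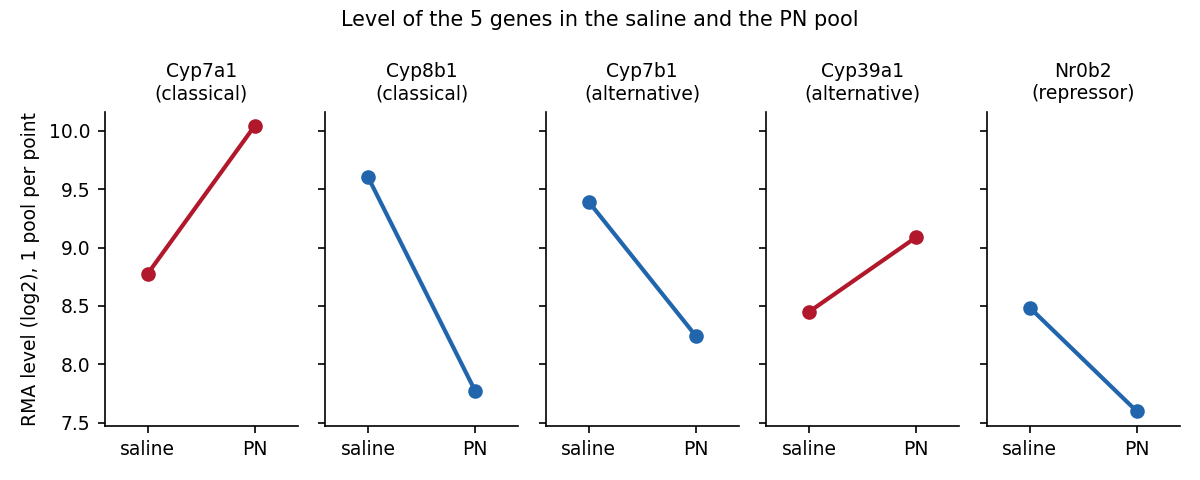
RMA level on the log2 scale (y axis) of the 5 genes in the saline and the PN pool (x axis), 1 panel per gene, 1 array per point, with a line joining the pools (red where the PN pool is higher, blue where it is lower). Cyp7a1 and Cyp39a1 slope upward and Cyp8b1, Cyp7b1 and Nr0b2 downward, and heights are not comparable between panels because each probe set binds with its own strength.

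Levels are given as RMA values on the log2 scale, in which 1 unit is a 2-fold difference in signal. Cyp7a1, the entry enzyme of the classical pathway, had a level of 8.77 under saline and 10.04 under PN. The PN level was thus higher by 1.27 on the log2 scale, or 2.41-fold. In the order of differences this was place 56 from the highest among the 1779 probe sets with 1 symbol. The median difference among the 896 higher probe sets was 0.73. Of the 8 markers of pericentral hepatocytes listed beside Cyp7a1, itself expressed mainly around the central vein, Lgr5 alone had a value, at a difference of 0.65.

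Cyp8b1, which acts after CYP7A1 in the same pathway, moved the other way. Its level was 9.60 under saline and 7.77 under PN, which is a difference of -1.83. Signal in the PN pool was 28.1% of that in the saline pool, or 3.56-fold lower. This was place 13 from the lowest of the 1779 probe sets, where the median of the 883 lower ones was -0.72. It was the member with the largest difference in either direction.

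Promoter sequences were at hand for 2 of the 5 members, Cyp8b1 and Nr0b2, so those of Cyp7a1, Cyp7b1 and Cyp39a1 were not searched. The promoter of Cyp8b1 is shown because this gene had the largest difference and because SHP is known to act on it through LRH-1 and HNF4A. The 250 bases before its start lie at chr9:121916306-121916555 on the minus strand of GRCm38.p6 (RefSeq). Capitals mark letters that match a searched motif on either strand.
Cyp8b1: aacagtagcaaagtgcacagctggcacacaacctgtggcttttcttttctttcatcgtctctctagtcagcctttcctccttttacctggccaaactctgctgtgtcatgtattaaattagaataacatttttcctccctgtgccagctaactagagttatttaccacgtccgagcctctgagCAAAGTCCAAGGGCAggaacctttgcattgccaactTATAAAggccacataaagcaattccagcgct
The first block of capitals joins 2 matches that overlap: CAAAGTCCA, the letters typical of HNF4A, from 67 to 59 bases before the start, and CAAGGNCA, the letters typical of LRH-1 and related receptors, from 60 to 53 bases before it. The second block is TATAAA, from 31 to 26 bases before the start. Of 32851 promoter windows of the same length in the RefSeq table, 0.384% held CAAAGTCCA, 5.53% held CAAGGNCA and 12.4% held TATAAA. An overlapping pair of the HNF4A and LRH-1 letters was present in 1 of the 32851 windows, that of Cyp8b1. The overlap was counted after the sequence had been seen, so the window of Cyp8b1 had to be among those counted. CAAAGTCCA was searched as 1 exact string, so pairs with other HNF4A letters were not counted. Matching letters describe the sequence and do not show that a factor was bound.

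In the alternative pathway, Cyp7b1, the oxysterol hydroxylase that follows side-chain oxidation, had a level of 9.39 under saline and 8.24 under PN. The difference was -1.15, or 2.22-fold lower in the PN pool, at place 84 from the lowest. Cyp39a1, a hydroxylase of oxysterols that carry a side-chain hydroxyl group, had levels of 8.45 and 9.09. It was higher by 0.64, or 1.56-fold, at place 700 from the highest. Cyp39a1 thus had the smallest difference of the 5 genes and lay just past the smallest one in the table, 0.585.

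Nr0b2 had a level of 8.49 under saline and 7.60 under PN, which is a difference of -0.89. Its signal in the PN pool was 54.0% of that in the saline pool, or 1.85-fold lower, at place 210 from the lowest. The lower level of this repressor accompanied a higher level of one of its known targets, Cyp7a1, and a lower level of another, Cyp8b1. The promoter of Nr0b2 is shown for comparison with that of Cyp8b1, the other member with an entry in the sequence table and also lower in the PN pool. The 250 bases before its start lie at chr4:133553126-133553375 on the plus strand of GRCm38.p6 (RefSeq), with motif matches in capitals.
Nr0b2: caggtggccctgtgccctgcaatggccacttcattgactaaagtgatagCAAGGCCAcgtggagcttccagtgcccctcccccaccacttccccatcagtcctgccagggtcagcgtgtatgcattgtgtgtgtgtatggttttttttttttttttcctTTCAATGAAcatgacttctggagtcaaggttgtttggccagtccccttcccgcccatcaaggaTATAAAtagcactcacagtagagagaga
CAAGGNCA was matched here too, from 201 to 194 bases before the start, with no CAAAGTCCA in this window. TTCNNNGAA, the letters typical of STAT factors, was matched from 91 to 83 bases before the start and is present in 7.02% of all windows. TATAAA lay from 28 to 23 bases before the start. The last motif searched, TTATGNAA, typical of the clock-related PAR bZIP factors and present in 3.07% of all windows, was matched in neither promoter.

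Differences between members do not depend on how the arrays were scaled by a constant, and 10 pairs were compared in this way. The ratio of Cyp7a1 to Cyp8b1 signal was 8.57-fold higher in the PN pool than in the saline pool, the widest of the 10 changes. The ratio of Cyp7a1 to Cyp7b1 signal was 5.34-fold higher. Such ratios are of RNA signals and do not measure amounts of enzyme or the activity of a pathway. The ratio of Cyp39a1 to Cyp7b1, both of the alternative pathway, was 3.45-fold higher. Relative to its repressor gene Nr0b2, Cyp7a1 was 4.46-fold higher and Cyp8b1 1.92-fold lower. The nearest pair was Cyp7b1 and Nr0b2, whose differences lay 0.26 apart on the log2 scale.

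The rest of the pathway had few values. Of 22 genes listed for the classical pathway, the alternative pathway and side-chain shortening and conjugation, the 4 enzymes were the ones with a value, and the other 18 had none. These include Cyp27a1, which starts the alternative pathway, Hsd3b7, which follows CYP7A1, and Baat, which joins bile acids to taurine. None of the 13 genes of side-chain shortening and conjugation had a value. Of 10 genes of the FXR, SHP and FGF15 axis Nr0b2 alone had one, and the receptor genes Nr1h4, Fgfr4 and Klb were among the 9 without. A gene with no value may have differed by less than 1.5-fold, may have no name here or was not analysed here.

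Of 27 factors known to act on Cyp7a1 or Cyp8b1, 6 had a value, with 3 higher and 3 lower. Onecut1, which encodes the hepatocyte factor HNF6, had levels of 7.50 and 9.05 and was 2.93-fold higher in the PN pool. Jun, the AP-1 subunit at the end of the stress kinase pathway that represses Cyp7a1, was 2.75-fold higher. Ppargc1a, a coactivator of HNF4A induced in fasting, was 2.38-fold higher. On the lower side, Tef, a PAR bZIP factor of the clock output, was 1.72-fold lower, and Rora, a receptor known to activate Cyp7b1 and Cyp8b1, was 1.60-fold lower. Nr1d1, the clock repressor REV-ERB alpha, was 1.54-fold lower. Nr5a2 and Hnf4a had no value.

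Cyp7b1 and Cyp39a1 also have sex-biased levels in mouse liver, where growth hormone secretion is known to set such patterns. The lists of such genes were chosen with earlier results of these data known, so their counts are not independent of these data. Among probe sets with 1 symbol 49.6% were lower and 50.4% higher. Of 20 male-biased genes, 13 had a value, Cyp7b1 among them, and all 13 were lower in the PN pool. Their median difference was -1.15, which is the value of Cyp7b1 because it is the middle one of the 13. Of 20 female-biased genes, 12 had a value, Cyp39a1 among them, and all 12 were higher, with a median of 1.51. Of these 12 genes 4 had a saline level under 3.26, a background level described below, and with such levels raised to it the median was 1.14. The difference of Cyp39a1, 0.64, was below both medians. Among the male-biased genes, Ugt2b38 had a PN level of 2.52, under the background level. Its difference was -0.32 with that level raised, and the male-biased median stayed at -1.15. The part of the sex-biased pattern in the differences of Cyp7b1 and Cyp39a1 was not tested.

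**Figure D2:**
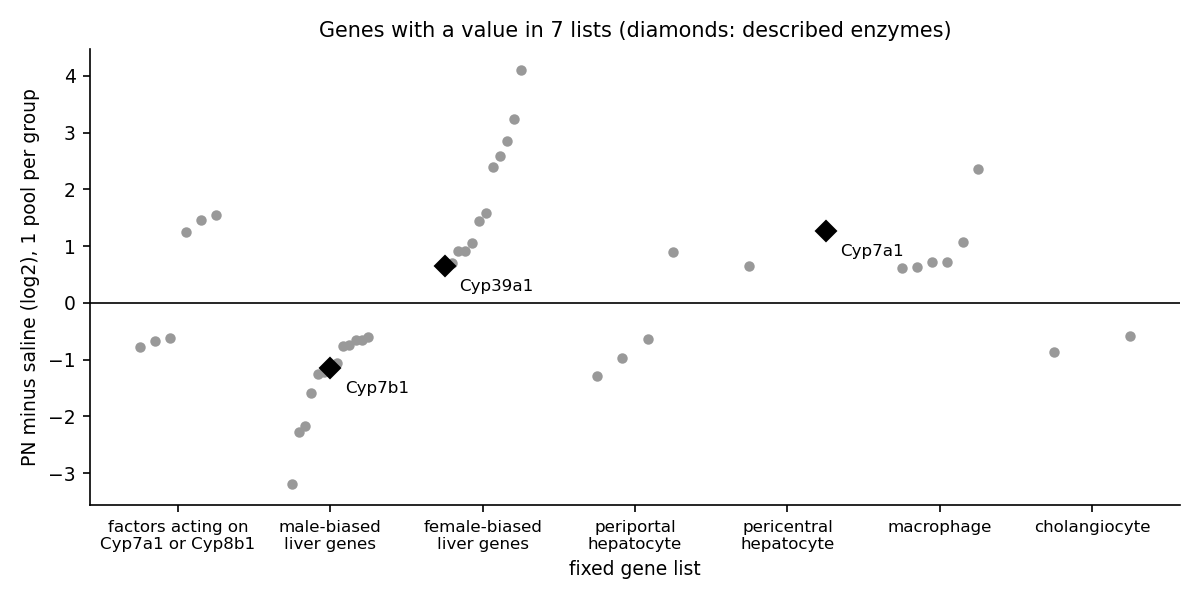
Difference between the pools (y axis, PN minus saline, log2, 1 array per group) of every gene with a value in 7 gene lists (x axis), with each enzyme described here as a labelled black diamond and other genes as grey points. The lists were chosen with earlier results of these data known. The 13 male-biased genes lie below 0 and the 12 female-biased genes above it, Cyp7b1 lies at the median of the former and Cyp39a1 lies below the median of the latter.

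Cyp7a1 and Cyp8b1 were also set among their gene family. The cytochrome P450 genes with a value numbered 22, and the PN pool was higher in 9 and lower in 13, with a median difference of -0.66. Among probe sets with 1 symbol 50.4% were higher and 49.6% lower. With P450 genes left out whose level was under 5.20 in both pools, 8 were higher and 11 lower. Of the 18 P450 genes other than the members, 7 were higher and 11 lower. Cyp2b9, Cyp17a1, a steroid hydroxylase, and Cyp2b13 had the highest differences, at 3.23, 2.40 and 1.58, and Cyp7a1 came next. The saline level of Cyp2b13, 2.95, lay under the background level given below, so its difference rests on a dim signal. Cyp4a12a, Cyp2b10 and Cyp4a12b had the lowest, at -3.20, -2.75 and -2.28, and Cyp8b1 held place 5 from this end, after Cyp2a5. Cyp2c55, named after its values were seen and counted as lower by its mean, had 2 probe sets of opposite direction. Close P450 paralogs can share probe sequence, which makes the values of such genes uncertain.

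**Figure D3:**
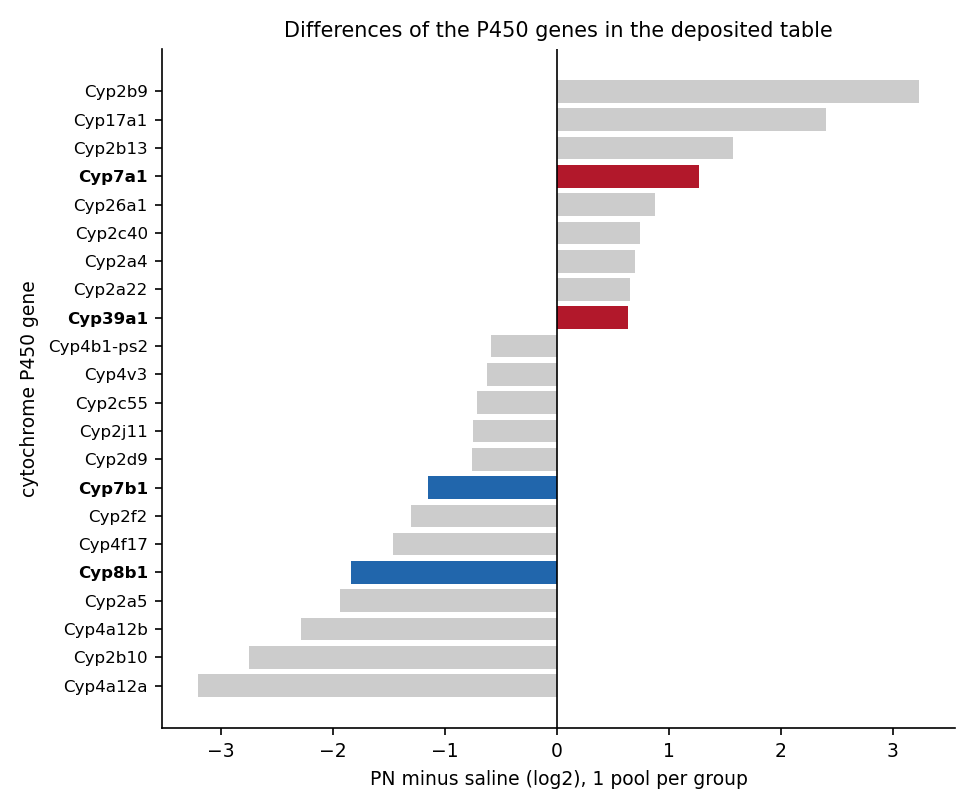
Difference between the pools (x axis, PN minus saline, log2, 1 array per group) of the 22 P450 genes with a value (y axis, ordered by difference). Members are in red where higher and blue where lower, with names in bold, and the other genes in grey. Cyp7a1 holds place 4 from the top at 1.27 and Cyp8b1 place 5 from the bottom at -1.83.

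Bright probe sets, with a mean level over both pools of at least 8, numbered 93 with 1 symbol, and all 5 members were among them. The limit of 8 was set after the values were seen. Of these 93, 29.0% differed by at least 2-fold, as did 3 of the 5 members. Within them Cyp8b1 held place 2 from the lowest, Cyp7b1 place 10 and Nr0b2 place 20. Cyp7a1 held place 10 from the highest and Cyp39a1 place 38. Both levels of each member lay above 3.26, the median of the higher level of 133 chemosensory receptor probe sets, taken as a background level.

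By the fixed measure of likeness, the distance between 2 genes' pairs of levels over the 2 arrays, the nearest of 1218 protein-coding genes to Cyp7a1 was Slc38a2, an amino acid transporter gene, at 0.20 on the log2 scale. Selenbp2 was nearest to Cyp8b1, at 0.34, and Ldhd, a lactate dehydrogenase gene, to Cyp7b1, at 0.098. Ctss, which encodes cathepsin S, was nearest to Cyp39a1, at 0.052, and Id2, an inhibitor of basic helix-loop-helix factors, to Nr0b2, at 0.088. Probe sets bind with unlike strength, so this nearness is one of signals on 2 arrays and does not show that the genes are expressed at like levels.

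Markers of other cells also differed between the pools. In bulk tissue, fewer cells of a type and less RNA per cell cannot be told apart. All 6 macrophage markers with a value, of 10 listed, were higher in the PN pool, where their mean level was 8.05 against 7.03. Among all probe sets with 1 symbol 50.4% were higher. The median difference of the macrophage markers was 0.72, and the largest was that of Marco, at 2.36. The 3 lymphocyte and natural killer cell markers with a value, of 8, had mean levels of 4.41 and 5.17, and the 3 neutrophil markers, of 6, had 4.67 and 5.59. Of 8 cholangiocyte markers 2 had a value and were lower, with mean levels of 5.17 and 4.44. Of 7 stellate cell markers Lum alone had a value, at a difference of 0.93. None of 6 endothelial markers and none of 8 general hepatocyte markers, Alb among them, had a value, so the tissue label could not be checked against these genes. Of 8 periportal hepatocyte markers 4 had a value: Cyp2f2, Hal and Uroc1 were lower and Ass1 higher, with a median difference of -0.81. The part of these in the members' differences was not tested.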

How the data were processed

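Total RNA of liver, pooled from 3 mice per group, was labelled with biotin after conversion to cDNA and measured on 2 arrays, 1 per group, per the labels' protocols and the series' design text. The deposited values are log2 levels made by the authors with RMA, which corrects background, normalizes arrays to each other and summarises probes, using Affymetrix Expression Console 1.4.0.38, per the submitters' processing notes. The genome build was not given in the sources used here, nor was the set of arrays that RMA was run on. The authors kept probe sets by a 1.5-fold cutoff, per the series' design text, and the smallest absolute difference in the table was 0.585. Unchanged genes therefore have no value, and shares refer to the deposited rows. RMA gives no counts, so the number of arrays limits the precision.

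Genes were named from the platform annotation where it gave 1 symbol, and the Entrez identifiers of all 5 genes matched the RefSeq table of GRCm38.p6. Of 173 listed genes 173 had an identifier there. Probe sets of 1 gene were averaged. A difference is the PN level minus the saline level, with no pseudocount. With 1 array per group no p-value or standard error was computed. The members, the 17 gene lists and the motifs were chosen with earlier results of these data known. Genes named with values are the members, list genes with a value, the gene nearest to each member over both levels, and the 3 P450 genes at each end. Cyp2a5 and Cyp2c55 were added after their values were seen, and some list genes are named as having no value. Nearest genes left out predicted, small RNA and chemosensory receptor genes. The bright level of 8 and the overlap of motifs were chosen after the values were seen. Scripts (Python 3.11.15, pandas 2.3.3, numpy 2.4.6) were tested on simulated data. Alternatives covered array scaling, a background level, the choice of probe sets and a 2-fold cutoff.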

Additional observations from a re-analysis of the deposited data

How the results depend on the processing

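The differences of the 5 genes kept their direction under 3 other scalings of the arrays and moved by at most 0.078 on the log2 scale. The values had already been normalized by RMA, and the medians of the arrays differed by -0.019. Every difference was at least 0.585 in size, so centring on the median of all rows could not reverse a direction. Raising levels to the background level, taking the brightest probe set per gene and counting probe sets of several symbols could not move these differences. Each of the 5 genes had 1 probe set, levels above background in both pools and no probe set of several symbols. Cyp7a1 ranged from 1.27 to 1.31, Cyp8b1 from -1.83 to -1.80, Cyp7b1 from -1.15 to -1.07, Cyp39a1 from 0.63 to 0.66 and Nr0b2 from -0.94 to -0.87. A move of over 0.1 was taken as a change. Of 68 comparisons with an alternative, 65 stayed within it, or within 1.5 times for counts. The 68 include the comparisons in which no member could move, so this share overstates the stability. The gap between Cyp7b1 and Nr0b2 became -0.13 after quantile normalization. Past a 2-fold cutoff 1 member in place of 2 was higher and 2 in place of 3 were lower, by construction. The count of lower members was within 1.5 times and so is among the 65. Raising levels to the background level, tried after the values were seen, moved the median of the female-biased genes from 1.51 to 1.14. No paired analysis was possible because each group has 1 array, and no array could be left out.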

Other observations

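Genes of the circadian clock and its output had few values: 4 of 14 listed, with 2 higher and 2 lower in the PN pool. Per1 had levels of 6.47 and 7.41 and was 1.92-fold higher, and Per3, at 5.03 and 5.70, was 1.59-fold higher. Dbp, a PAR bZIP gene known to act on Cyp7a1, had no value. Tef and Nr1d1 were lower, with values given above. The labels used here do not give the time of day at which livers were taken.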
